A study of Rattus norvegicus with 484 samples.

Results

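The genes described here build, anchor and cut the extracellular matrix. They are the collagens, the laminins, the matrix metalloproteinases (MMPs), the ADAMTS proteases with their ADAMTS-like relatives, the tissue inhibitors of metalloproteinases (TIMPs), and decorin (Dcn), lumican (Lum), fibronectin (Fn1), osteonectin (Sparc) and periostin (Postn). They were chosen by their symbols in the array annotation. This gave 56 of the 10210 genes that the arrays name, measured by 88 probes. The 56 comprised 8 fibrillar collagens, 4 basement membrane collagens, 9 other collagens, 7 laminins, 6 ADAMTS and ADAMTS-like genes, 14 MMPs, 3 TIMPs and the 5 proteoglycans and glycoproteins named above. Of the 56, 39 had 1 probe and 17 had several, which were averaged.

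Rats received fenofibrate at 400 mkd, bezafibrate at 250, Wy-14643 at 100, rosiglitazone at 100, retinoic acid at 25 or vehicle at 0 mkd (the dose unit as the labels write it). Soleus, quad and liver were taken on each of days 2 to 6. Fenofibrate, bezafibrate and Wy-14643 activate the nuclear receptor PPARA, rosiglitazone activates PPARG, and retinoic acid activates the retinoic acid receptors. Each of the 484 2-colour arrays set the RNA of 1 rat against RNA pooled from vehicle rats, matched by tissue and day. Soleus had 19, 20, 18, 20 and 20 arrays of the 5 compounds in the order given above, and 35 vehicle arrays. Quad had 17, 20, 16, 16 and 18 after 1 fenofibrate array was left out (rat 1157, day 6), and 63 vehicle arrays. Liver had 14, 15, 15, 15 and 15, and 73 vehicle arrays. A muscle labelled EDL was measured at lower doses, on days 4 to 6 and, for Wy-14643 and retinoic acid, also on day 3, and no vehicle rat was hybridised singly. Its fenofibrate group (50 mkd) and its bezafibrate group (25 mkd) had 9 arrays each, as did rosiglitazone (10 mkd). Wy-14643 (10 mkd) had 12 and retinoic acid (2.5 mkd) had 11, and 4 further arrays came from rats on rosiglitazone at 100 mkd on day 4. Strain, sex and age were not given in the sources used here.

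Fibrillar collagens form the load-bearing fibres of connective tissue, and collagen IV and the laminins form the sheet, or basement membrane, that surrounds muscle fibres and vessels. MMPs and ADAMTS proteases cut these proteins, and TIMPs inhibit MMPs. In muscle the matrix is made mainly by fibroblasts, and in liver mainly by stellate cells, with a contribution from endothelial cells; leukocytes bring several of the MMPs.

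RefSeq promoter windows of the GRCr8 build, from 250 bases before to 50 after the gene start, were on hand for 41 of the 56 genes. The windows of 3 are printed because the collagen IV pair is transcribed from one shared stretch, Col1a2 is a chain of collagen I, whose 2 chains varied together in vehicle rats, and Adamts7 had the largest fall of these genes in liver under each of the PPARA agonists. Col4a1 lies on the plus strand at chr16:84885347-84885646 and Col4a2 on the minus strand at chr16:84885471-84885770. Capitals in the Col4a1 line mark the 176 bases that both windows share. Col1a2 lies on the plus strand at chr4:33518307-33518606 and Adamts7 on the plus strand at chr8:99584279-99584578. Capitals in these 2 lines mark the letters TATAAA and CCAAT on either strand.
Col4a1: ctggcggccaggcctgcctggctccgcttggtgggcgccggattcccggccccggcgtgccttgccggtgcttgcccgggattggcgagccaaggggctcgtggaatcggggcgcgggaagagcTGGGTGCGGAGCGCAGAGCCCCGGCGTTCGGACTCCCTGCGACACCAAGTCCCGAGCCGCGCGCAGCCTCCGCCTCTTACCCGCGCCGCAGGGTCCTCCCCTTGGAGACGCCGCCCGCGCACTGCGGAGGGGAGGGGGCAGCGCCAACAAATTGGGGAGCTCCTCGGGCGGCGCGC
Col1a2: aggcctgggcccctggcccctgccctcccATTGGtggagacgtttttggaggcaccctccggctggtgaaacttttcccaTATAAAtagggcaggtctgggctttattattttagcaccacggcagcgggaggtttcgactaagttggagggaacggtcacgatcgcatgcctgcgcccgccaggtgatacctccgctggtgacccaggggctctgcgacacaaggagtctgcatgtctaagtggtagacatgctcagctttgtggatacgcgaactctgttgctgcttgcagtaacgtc
Adamts7: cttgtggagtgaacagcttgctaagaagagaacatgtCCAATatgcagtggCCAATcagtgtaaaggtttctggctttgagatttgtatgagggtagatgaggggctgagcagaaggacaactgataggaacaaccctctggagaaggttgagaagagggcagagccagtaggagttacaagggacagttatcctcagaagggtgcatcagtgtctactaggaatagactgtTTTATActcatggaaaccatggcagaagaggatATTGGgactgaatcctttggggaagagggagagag

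The letters TATAAA were found on either strand in 14 of the 41 windows (34.1%), against 14.2% of the 33469 windows in the table. CCAAT was found in 14 (34.1%), against 37.5%. GGGCGG was found in 19 (46.3%), against 33.1%, and AGGTCA, the core letters of many nuclear receptor sites, in 4 (9.76%), against 16.2%. Of the 3 printed windows, Col1a2 and Adamts7 held TATAAA, all 3 held CCAAT, Col4a1 held GGGCGG and none held AGGTCA. Matches to different motifs were counted independently and may overlap, and they are a description of letters only.

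All values below are log2 ratios to the pool, minus the mean of same-day vehicle rats of that tissue, so vehicle rats scatter around 0. A difference is the mean over days of a compound against its same-day vehicle rats, with its standard error, from limma's moderated test. A gene is said to rise or fall when its Benjamini-Hochberg adjusted p over all measured features was under 0.05. The compounds of a tissue were all set against the same vehicle rats, so their values stand side by side and are not independent of each other. Fn1 had values on 30.3% of the soleus and 5.44% of the liver arrays and was tested only in quad and EDL, which leaves 55 genes in soleus and liver. Because each array is a ratio to the same tissue, the labelled tissue cannot be checked from marker levels, but 1 soleus vehicle array (rat 1034) had another tissue's markers 5.10 log2 units above the median array of its day. In all, 10 arrays, rat 1157 included, were unusually wide or carried another tissue's markers: 3 soleus vehicle arrays, 3 quad vehicle arrays, 1 quad array each of fenofibrate, bezafibrate and retinoic acid, and 1 liver array of rosiglitazone (rat 1376). Acot1, a PPARA target used to check direction, was 2.92, 3.20 and 3.20 log2 units above vehicle in liver under fenofibrate, bezafibrate and Wy-14643. Correlations between arrays reached as low as -0.63 in soleus, -0.41 in quad and -0.41 in liver, with 99, 115 and 30 pairs below -0.3. Of these pairs 77, 88 and 30 included a vehicle array, while 22 in soleus and 14 in quad included neither a vehicle array nor 1 of those 10 arrays. The labels give the dyes but not the direction of the ratio. It was inferred from the channels and Acot1 and kept for all arrays.

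At least 1 compound changed 36 of the 55 genes tested in liver, 13 of 56 in quad and 7 of 55 in soleus. These counts join all compounds, and no such joint share was computed over all features. By single compound, the share of all features that passed was 21.3% to 40.2% in liver, 0.038% to 10.5% in quad and 0.191% to 3.33% in soleus. Of the 67 liver calls 12 exceeded 0.5 log2 units. None of the 14 quad calls and 3 of the 8 soleus calls exceeded that size. Across the 3 tissues 15 genes passed in no comparison of a compound with vehicle over the days, with all arrays used. Among them were Col1a1, the main chain of the most abundant fibrillar collagen, the laminin chain Lamc1, Timp3 and the collagenases Mmp8 and Mmp13. The other 10 were Adamts4, Col10a1, Col17a1, Col2a1, Col6a2, Col9a3, Fn1, Mmp10, Mmp17 and Mmp23. Some of these passed elsewhere, as Mmp17 did in the test between days in liver under retinoic acid. Without rat 1376, Timp3, Adamts4, Col6a2, Col17a1 and Col9a3 fell in liver under rosiglitazone. Without rats 1373 and 1376, Col6a2 and Mmp10 fell there. The other genes just named then did not pass: Timp3 stood at -0.01, Adamts4 at 0.03, Col17a1 at -0.01 and Col9a3 at -0.07. Mmp23 fell in soleus under fenofibrate without the 3 vehicle arrays in doubt.

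**Figure D1:**
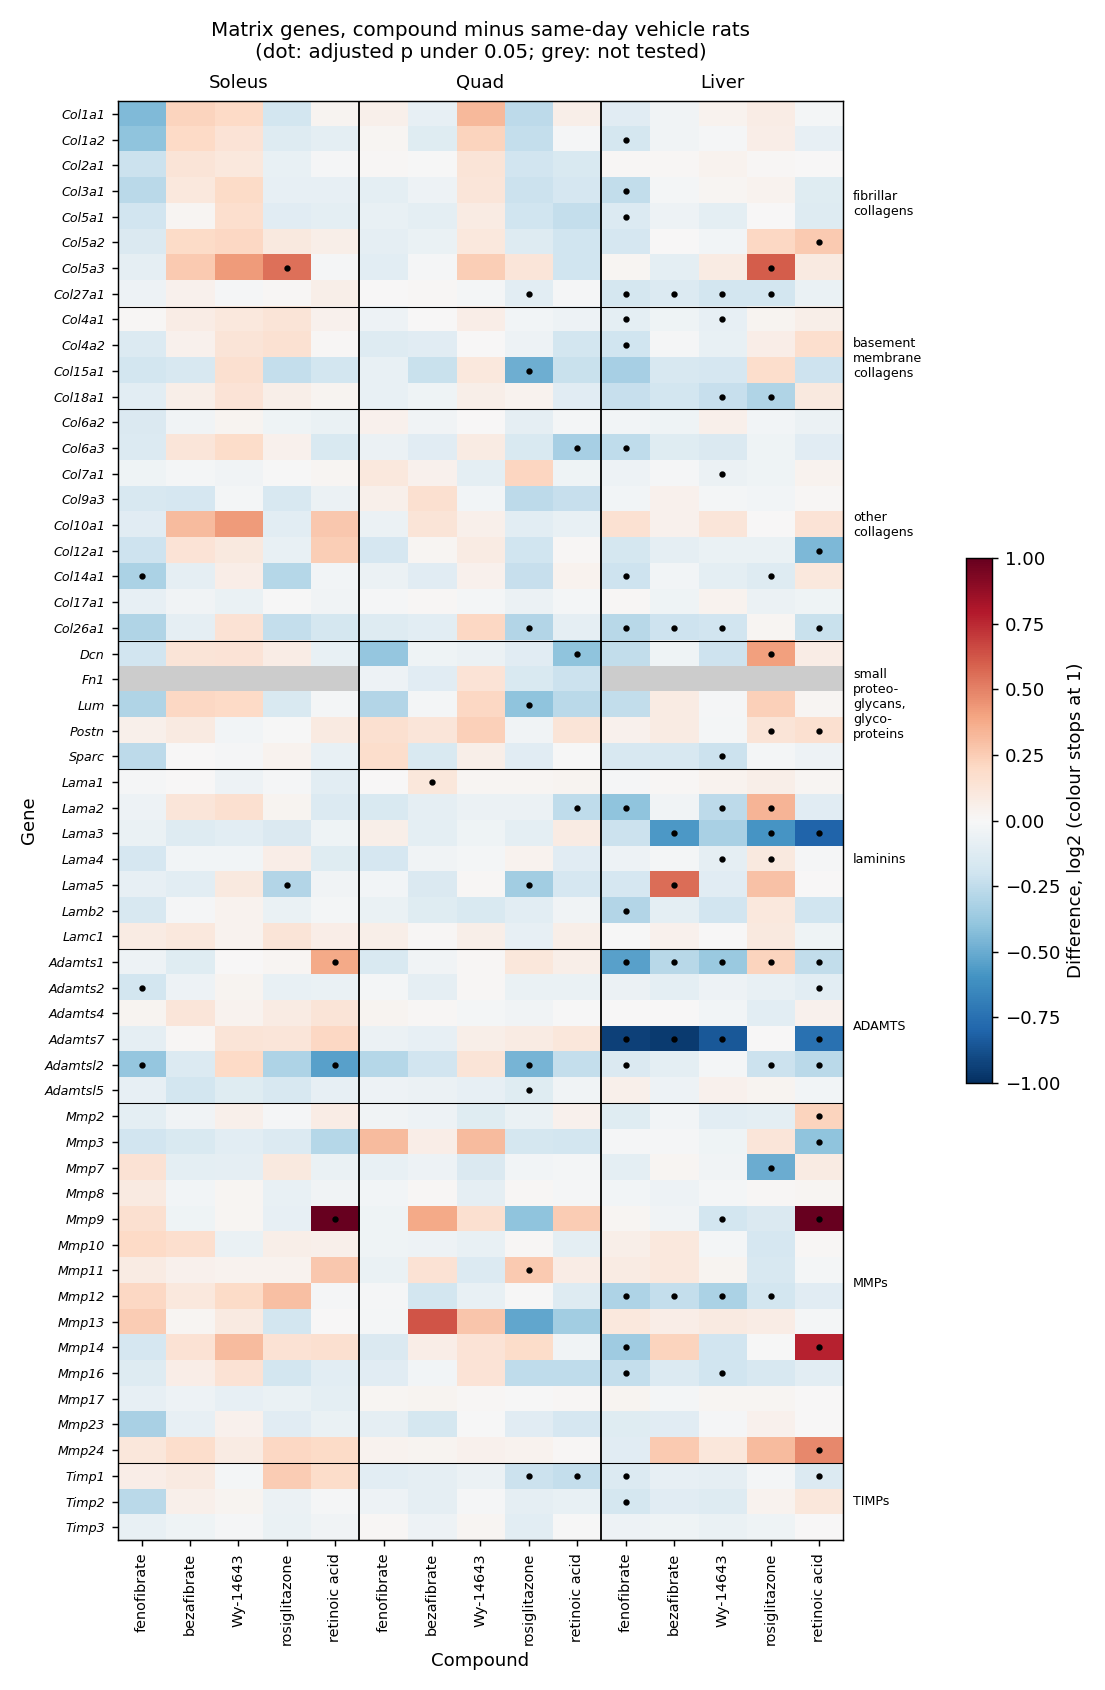
Difference of each compound from same-day vehicle rats on the log2 scale for the 56 genes (rows, grouped by role) in soleus, quad and liver (columns). Dots mark genes with an adjusted p under 0.05: 67 in liver, 14 in quad and 8 in soleus, summed over compounds. By single compound, 21.3% to 40.2% of all features passed in liver, against 0.038% to 10.5% in quad and 0.191% to 3.33% in soleus.

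In liver the count of matrix genes that passed has to be read against how many of all features passed. For each gene the liver compounds share an estimate of spread. Where rosiglitazone rat 1376 stood apart, it therefore also widened the standard errors of the other compounds. The counts below use all arrays, and the liver calls summed over compounds were more numerous without that rat, as given in the closing section. Under fenofibrate 0 of 55 rose and 19 fell, a share of members close to that of all features, 37% of which passed in either direction. Under bezafibrate 1 rose and 6 fell, against 21.3% of all features. Under Wy-14643 0 rose and 13 fell, against 40.2%. Under retinoic acid 6 rose and 9 fell, against 29.2%, and under rosiglitazone 6 rose and 7 fell, against 22.7%. Direction was less even than among all features under fenofibrate, where 3265 features rose and 3549 fell. The median difference of the 55 genes was -0.12 under fenofibrate, -0.04 under bezafibrate, -0.06 under Wy-14643, 0.01 under rosiglitazone and -0.01 under retinoic acid, and the medians of all features lay within 0.01 of 0.

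Among the proteases of the ADAMTS family, Adamts7, which cuts cartilage oligomeric matrix protein, was lower with 4 of the compounds. Under fenofibrate its lowest, median and highest values in 14 livers were -1.47, -0.90 and -0.37, against -1.65, 0.05 and 1.06 in 73 vehicle livers. All 14 lay below the vehicle median, though within the vehicle range. The difference was -0.93 ± 0.15 (SE; adjusted p = 1.95e-07, limma), a fold of 0.525. Under bezafibrate it was -0.96 ± 0.15, under Wy-14643 -0.85 ± 0.15 and under retinoic acid -0.75 ± 0.15, and the lowest, median and highest bezafibrate livers lay at -2.29, -0.75 and 0.06. Rosiglitazone livers did not pass for this gene, at 0.00 ± 0.15 with all arrays and -0.13 ± 0.15 without rat 1376, which stood at 2.33. The other 14 had a median of -0.17, and 9 of them lay below 0.

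Adamts1, a protease of versican and aggrecan, fell with the same 4 compounds. Fenofibrate livers had -0.78, -0.55 and -0.25 as lowest, median and highest values, against -0.77, 0.03 and 0.60 in vehicle livers. Again all 14 were below the vehicle median, and 1 was below every vehicle liver. The difference was -0.54 ± 0.09 (adjusted p = 6.96e-08, limma) under fenofibrate, -0.27 ± 0.08 under bezafibrate, -0.37 ± 0.08 under Wy-14643 and -0.24 ± 0.08 under retinoic acid. Adamtsl2, an ADAMTS-like protein without protease activity that binds the matrix, fell under fenofibrate (-0.15 ± 0.06), rosiglitazone (-0.22 ± 0.06) and retinoic acid (-0.27 ± 0.06). Adamts2, which removes the amino-terminal propeptide of procollagens, fell under retinoic acid by 0.11 ± 0.04.

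**Figure D2:**
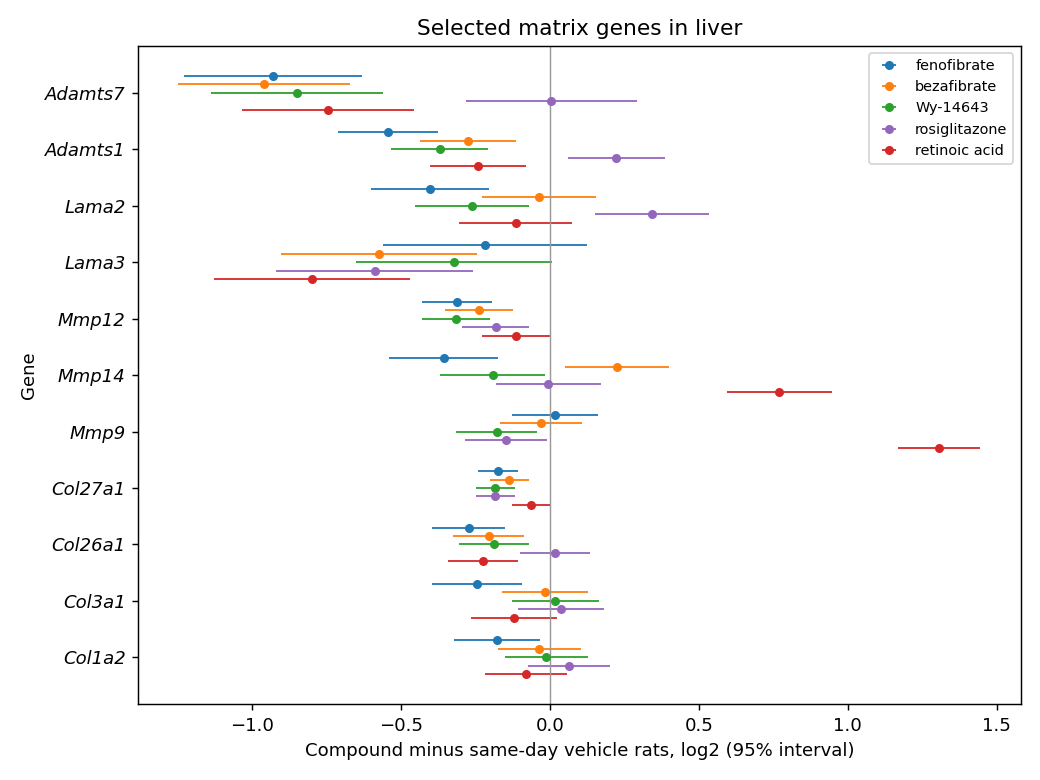
Differences of 11 matrix genes in liver on the log2 scale, one point per compound with its 95% interval, compound minus same-day vehicle rats. Adamts7 lies between -0.96 and -0.75 with 4 compounds and at 0.00 with rosiglitazone (-0.13 without rat 1376), and with retinoic acid Mmp9 lies at 1.31 and Mmp14 at 0.77.

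The laminin chains moved apart from each other. Lama2, the alpha chain of the laminin around muscle fibres, had a lowest, median and highest value of -0.77, -0.43 and -0.04 in fenofibrate livers, against -0.28, 0.00 and 0.47 in vehicle livers. Of the 14 fenofibrate livers 11 lay below every vehicle liver. The difference was -0.40 ± 0.10 (adjusted p = 0.000643, limma). Under Wy-14643 the difference was -0.26 ± 0.10, and 8 of 15 livers lay below every vehicle liver.

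Lama3, a chain of the laminin of epithelial basement membranes, fell under bezafibrate (-0.57 ± 0.17), rosiglitazone (-0.59 ± 0.17) and retinoic acid (-0.80 ± 0.17, adjusted p = 5.49e-05, limma). The rosiglitazone call held without rat 1376 (-0.54 ± 0.17) and was lost without rats 1373 and 1376 (-0.48 ± 0.19, adjusted p = 0.0965, limma). Its vehicle livers spread widely, between -1.68 and 1.08, and the retinoic acid livers lay between -2.06 and 0.78 with a median of -0.90. The 2 sets overlap, with 2 of 15 retinoic acid livers below every vehicle liver. Lama5, the alpha chain of adult epithelial and vascular basement membranes, rose under bezafibrate. Bezafibrate livers had -0.33, 0.57 and 1.32 as lowest, median and highest values, against -0.59, -0.02 and 0.74 in vehicle livers, and 6 of 15 lay above every vehicle liver. The difference was 0.56 ± 0.12 (adjusted p = 0.000114, limma). Lamb2 fell under fenofibrate by 0.29 ± 0.11, and Lama4, a vascular chain, fell under Wy-14643 by 0.09 ± 0.03.

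Mmp9, the gelatinase B that leukocytes and other cells secrete, had values of 0.16, 1.24 and 2.60 (lowest, median and highest) in 15 retinoic acid livers, against -0.34, -0.01 and 0.52 in 73 vehicle livers. Of the 15, 13 lay above every vehicle liver. The difference was 1.31 ± 0.07 (adjusted p = 1.552e-34, limma), a fold of 2.48. Mmp14, a membrane-bound collagenase that activates Mmp2, had 0.47, 0.67 and 1.18 in retinoic acid livers, against -0.86, -0.01 and 0.57 in vehicle livers. Here 10 of 15 lay above every vehicle liver, and the difference was 0.77 ± 0.09 (adjusted p = 1.87e-12, limma).

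Mmp24 rose by 0.48 ± 0.13 and Mmp2, gelatinase A, by 0.22 ± 0.05 under retinoic acid. The 2 probes of Mmp2 pointed apart, at -0.12 and 0.56, so its direction depends on the probe. Mmp3, stromelysin 1, fell: retinoic acid livers had -1.02, -0.36 and -0.13, against -0.42, -0.01 and 1.04 in vehicle livers, and 6 of 15 lay below every vehicle liver (-0.40 ± 0.07, adjusted p = 4.70e-07, limma).

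With the PPARA agonists the metalloproteinases that passed all fell. Mmp12, the macrophage elastase, differed by -0.31 ± 0.06 under fenofibrate, -0.24 ± 0.06 under bezafibrate and -0.32 ± 0.06 under Wy-14643. All 15 bezafibrate livers lay below the vehicle median for Mmp12, at -0.69 to 0.01, within the vehicle range of -0.76 to 0.45. Mmp14 differed by -0.36 ± 0.09 under fenofibrate (adjusted p = 0.00104, limma), while bezafibrate livers stood at 0.22 ± 0.09 and Wy-14643 livers at -0.19 ± 0.09, neither of which passed (adjusted p = 0.0575 and 0.0739). Mmp16, a membrane-type MMP, fell under fenofibrate (-0.24 ± 0.07) and Wy-14643 (-0.20 ± 0.07), and Mmp9 fell under Wy-14643 by 0.18 ± 0.07. Of the inhibitors, Timp1 fell under fenofibrate (-0.14 ± 0.05) and retinoic acid (-0.14 ± 0.04), and Timp2 fell under fenofibrate by 0.17 ± 0.07.

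The collagens that passed under fenofibrate were Col26a1 (-0.27 ± 0.06), Col6a3 (-0.25 ± 0.07), Col3a1 (-0.24 ± 0.08), Col14a1 (-0.21 ± 0.05), Col4a2 (-0.20 ± 0.08), Col1a2 (-0.18 ± 0.07), Col27a1 (-0.17 ± 0.03), Col5a1 (-0.14 ± 0.06) and Col4a1 (-0.10 ± 0.04). They span the fibrillar, the basement membrane and the fibre-associated types. For Col3a1, the fibrillar partner of collagen I, fenofibrate livers had -0.72, -0.15 and 0.23, against -0.61, -0.03 and 0.56 in vehicle livers, with 2 of 14 below every vehicle liver. Col1a1 itself did not pass, at -0.11 ± 0.09 (95% interval -0.30 to 0.07). Col27a1 also fell under bezafibrate (-0.14 ± 0.03), Wy-14643 (-0.18 ± 0.03) and rosiglitazone (-0.18 ± 0.03), and Col26a1 under bezafibrate (-0.21 ± 0.06), Wy-14643 (-0.19 ± 0.06) and retinoic acid (-0.22 ± 0.06).

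Under Wy-14643 Col18a1, the source of endostatin, fell by 0.23 ± 0.10, Col4a1 by 0.08 ± 0.03, the anchoring fibril collagen Col7a1 by 0.06 ± 0.02, and Sparc, a collagen-binding glycoprotein, by 0.21 ± 0.08. The probes of Col4a1 pointed apart under fenofibrate (-0.21 to 0.10) and under Wy-14643 (-0.23 to 0.03), as did those of Col18a1 under Wy-14643 (-0.29 to 0.03). Retinoic acid livers had Col12a1, a collagen on the surface of fibrils, at -1.02, -0.60 and 0.17, against -0.63, 0.01 and 1.52 in vehicle livers. Of 15, 5 lay below every vehicle liver, and the difference was -0.45 ± 0.08 (adjusted p = 6.92e-06, limma). Col5a2, a fibrillar chain, rose by 0.26 ± 0.08 and Postn, which crosslinks matrix proteins, by 0.16 ± 0.04 under retinoic acid.

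Genes that make, bind or regulate the matrix without belonging to these families were counted from lists, to be read against the 37% of all features that passed under fenofibrate, 21.3% under bezafibrate, 40.2% under Wy-14643 and 29.2% under retinoic acid. Under fenofibrate 0 rose and 7 fell of 16 collagen processing genes, 1 rose and 8 fell of 18 other matrix glycoproteins and proteoglycans, and 1 rose and 10 fell of 18 genes of TGF beta signalling. Of the matrix receptors 1 of 14 rose and 5 fell, and of 14 plasminogen-related and other matrix proteases 1 rose and 7 fell. Under Wy-14643 the TGF beta list had 1 rise and 9 falls of 18, under bezafibrate 1 and 4, under retinoic acid 2 and 3. Dag1, which encodes the laminin receptor dystroglycan, rose with fenofibrate (0.52 ± 0.04), bezafibrate (0.38 ± 0.04), Wy-14643 (0.59 ± 0.04) and retinoic acid (0.47 ± 0.04). Ltbp4, a binding protein of latent TGF beta, fell under fenofibrate by 1.02 ± 0.11, and Loxl2, a collagen crosslinking enzyme, rose under retinoic acid by 0.34 ± 0.03.

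Markers of liver cell types were counted in the same comparisons. These counts, too, are to be read against all features, of which 37% (fenofibrate), 21.3% (bezafibrate), 40.2% (Wy-14643) and 29.2% (retinoic acid) passed. Of 16 macrophage and leukocyte markers 0 rose and 12 fell under fenofibrate, 0 and 2 under bezafibrate, and 0 and 12 under Wy-14643. The mean of this list ranged from -0.53 to 0.19 in fenofibrate livers, -0.33 to 0.39 in bezafibrate livers and -0.47 to -0.01 in Wy-14643 livers, against -0.29 to 0.47 in vehicle livers. Of 9 endothelial markers 0 rose and 6 fell under fenofibrate, with list means of -0.32 to -0.04 in fenofibrate livers, against -0.19 to 0.22 in vehicle livers. Under retinoic acid 6 of 11 hepatic stellate markers rose and 2 fell, with list means of 0.09 to 0.47 in retinoic acid livers, against -0.16 to 0.19 in vehicle livers. That list includes Lrat, itself a retinoic acid target, at a fold of 5.65. Under fenofibrate 0 of these 11 rose and 5 fell, with list means of -0.28 to 0.15 in fenofibrate livers. Of the 12 hepatocyte markers listed, 6 were tested in liver. Under retinoic acid 4 of these 6 fell, with list means of -1.08 to -0.29 in retinoic acid livers, against -0.40 to 0.34 in vehicle livers. The part of these markers in the matrix results was not tested. In these bulk samples, fewer cells of a type and less RNA per cell cannot be told apart, and as ratios the values do not show whether a marker was near absent.

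Some of the liver calls under rosiglitazone, and most of its day differences, depended on 2 rats of day 4. In rat 1376, 27 of the 55 genes tested in liver lay more than 1 log2 unit from the vehicle mean. Dcn was at 4.79, Lamb2 at 4.47, Lama2 at 4.11, Col5a3 at 3.31 and Col18a1 at -3.17. In rat 1373, Mmp7, matrilysin, lay at -6.59, Mmp11 at -3.32, Adamts4 at -2.31 and Mmp2 at -1.30. With every array, Col5a3 (0.60 ± 0.16), Dcn (0.41 ± 0.14), Lama2 (0.34 ± 0.10), Adamts1 (0.22 ± 0.08), Postn (0.13 ± 0.04) and Lama4 (0.10 ± 0.03) rose. Lama3 (-0.59 ± 0.17), Mmp7 (-0.49 ± 0.14), Col18a1 (-0.30 ± 0.10), Adamtsl2 (-0.22 ± 0.06), Col27a1 (-0.18 ± 0.03), Mmp12 (-0.18 ± 0.06) and Col14a1 (-0.13 ± 0.05) fell.

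Without rat 1376, 2 of 55 rose and 15 fell, against 18.6% of all features. Without rats 1373 and 1376, 1 rose and 7 fell, against 9.46%. The genes that passed with all arrays and in both reduced sets were Adamtsl2 (-0.25 ± 0.07 without the 2 rats), Col14a1 (-0.19 ± 0.06), Col27a1 (-0.17 ± 0.04) and Postn (0.15 ± 0.04). Without rat 1376, Dcn stood at 0.10 ± 0.11 and Lama2 at 0.07 ± 0.05, and neither passed. In the other 14 livers Lama2 lay between -0.46 and 0.49, and Dcn between -0.32 and 1.25. In the liver array of rat 1376 markers of other cells also stood apart: the highest fibroblast list mean among rosiglitazone livers was 1.56 and the highest smooth muscle and pericyte mean 1.68, against 0.17 and 0.14 in vehicle livers, and the lowest hepatocyte mean was -2.92, against -0.40.

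**Figure D3:**
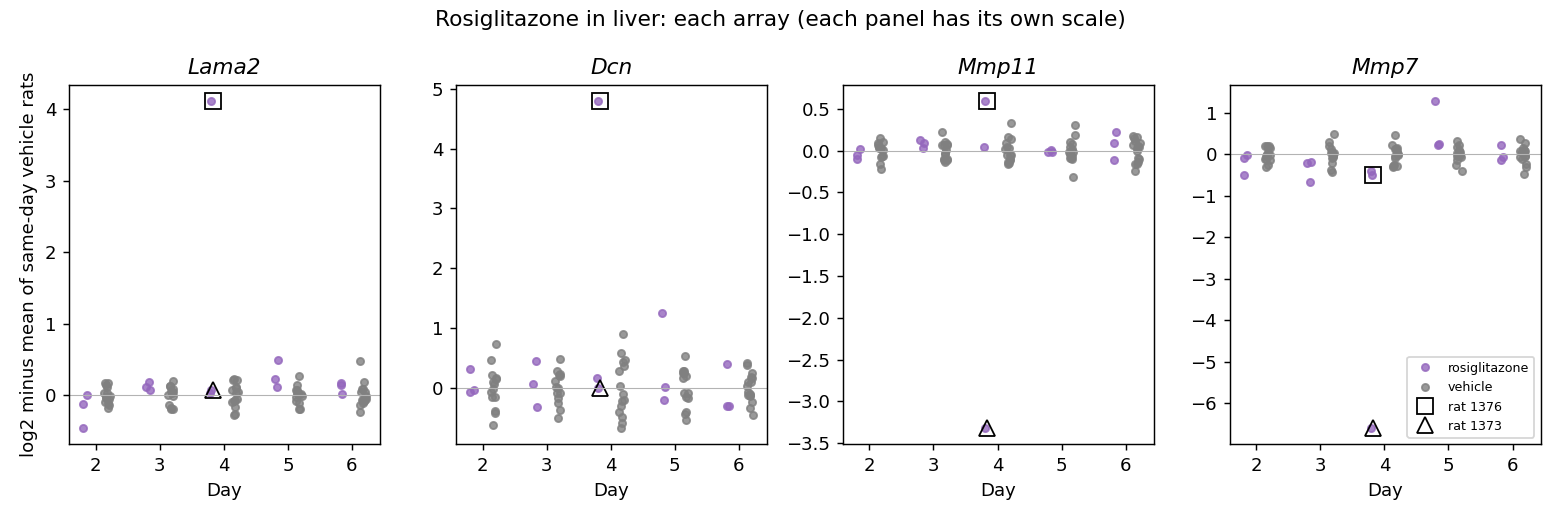
Values of 4 genes in each liver array of rosiglitazone and vehicle by day, on the log2 scale, minus the mean of same-day vehicle rats; each panel has its own scale. The square marks rat 1376, at 4.11 for Lama2 and 4.79 for Dcn, and the triangle marks rat 1373, at -3.32 for Mmp11 and -6.59 for Mmp7.

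The effect of a compound was compared over days 2 to 6 by limma's F test, which asks whether any of these days differ. In liver the days differed for 1 of 55 genes under fenofibrate, against 0.701% of all features, for 0 under bezafibrate, against 0.31%, and for 0 under Wy-14643, against 0.114%. Under retinoic acid they differed for 3, against 8.68%. At an unadjusted p under 0.05 the counts for bezafibrate and Wy-14643 were 2 and 3. Under rosiglitazone the days differed for 31, against 31.1% of all features. Without rat 1376 that count was 8, against 9.64%, and without rats 1373 and 1376 it was 1, Mmp7 (adjusted p = 0.01914), against 1.07%.

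In liver the difference of Mmp9 under retinoic acid from vehicle was 0.44 ± 0.16 on day 2, 1.27 ± 0.16 on day 3, 2.05 ± 0.15 on day 4, 1.35 ± 0.16 on day 5 and 1.43 ± 0.15 on day 6, with 3 treated livers a day (adjusted p of the day test = 1.078e-05, limma). Every day was above vehicle, and day 4 was the highest. Mmp14 lay between 0.56 ± 0.20 and 0.93 ± 0.20 on the 5 days and its day test did not pass. Col27a1 was at 0.20 ± 0.07 on day 2 and at -0.19 ± 0.07 on day 6 (adjusted p = 0.03137, limma), and Mmp17 at 0.12 ± 0.05 on day 2 and -0.12 ± 0.05 on day 5 (adjusted p = 0.04188, limma). Timp1 under fenofibrate was between -0.36 and -0.14 on days 2, 3, 4 and 6 and at 0.27 ± 0.10 on day 5 (adjusted p = 0.04597, limma).

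**Figure D4:**
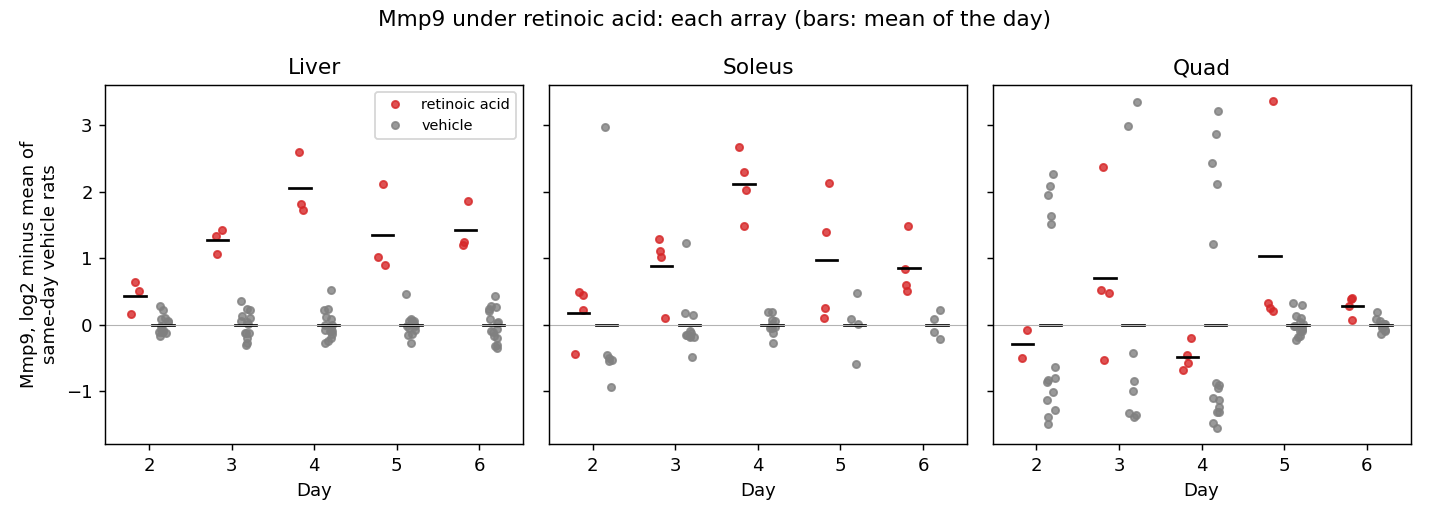
Mmp9 in each array of retinoic acid and vehicle rats by day in liver, soleus and quad, on the log2 scale, minus the mean of same-day vehicle rats; bars are day means. In liver the day 4 mean is 2.05 and in soleus 2.11, while in quad the vehicle arrays of days 2 to 4 split into a high and a low set.

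Soleus, a slow postural muscle, changed in few of these genes. Under retinoic acid 2 of 55 rose and 1 fell, against 2.85% of all features. Mmp9 had -0.44, 0.93 and 2.67 as lowest, median and highest values in 20 retinoic acid soleus arrays, against -0.94, -0.09 and 2.98 in 35 vehicle arrays. The groups overlap: the lowest retinoic acid array lay below the vehicle median and 19 of 20 above it, while single vehicle arrays reached 2.98 on day 2 and 1.23 on day 3. The difference was 1.00 ± 0.16 (adjusted p = 4.12e-06, limma), a fold of 2.00. By day it was 0.18 ± 0.36, 0.88 ± 0.32, 2.11 ± 0.33, 0.97 ± 0.39 and 0.86 ± 0.39 on days 2 to 6. Day 4 was again the highest, as in liver, but the day test did not pass.

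Adamtsl2 in retinoic acid soleus had -1.30, -0.54 and 0.32, against -0.98, 0.01 and 0.54 in vehicle soleus. Of 20 arrays 18 lay below the vehicle median and 4 below every vehicle array, with a difference of -0.54 ± 0.10 (adjusted p = 0.000115, limma). Adamts1 rose by 0.38 ± 0.10 (adjusted p = 0.0215, limma), a call that was lost without vehicle rat 1061 (adjusted p = 0.05415), with arrays scaled to one spread (0.05819) and with array quality weights (0.1455). Under fenofibrate 0 rose and 3 fell, against 3.33% of all features: Adamtsl2 (-0.39 ± 0.10), Col14a1, a fibril-associated collagen (-0.32 ± 0.09), and Adamts2 (-0.18 ± 0.04, adjusted p = 0.00511, limma). Under rosiglitazone 1 rose and 1 fell, against 2.63%. Col5a3, a minor fibrillar chain, had -0.06, 0.57 and 1.33 in rosiglitazone soleus, against -0.85, 0.00 and 1.06 in vehicle soleus, a difference of 0.55 ± 0.13 (adjusted p = 0.00329, limma), and 4 of 20 lay above every vehicle array. Lama5 fell by 0.29 ± 0.07 (adjusted p = 0.00668, limma).

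No gene passed in soleus under bezafibrate or Wy-14643, where 0.904% and 0.191% of all features did. At an unadjusted p under 0.05 in limma, 4 and 5 of the 55 remained. The days differed for 0 of 55 with each of the 5 compounds, against 0% of all features, and at an unadjusted p under 0.05 for 3, 3, 6, 1 and 3 in the order fenofibrate, bezafibrate, Wy-14643, rosiglitazone and retinoic acid. The median of the 55 under fenofibrate was -0.10, against -0.01 for all features. Fibrillar collagens contributed to it without passing: Col1a1 had -2.44, -0.38 and 0.73 in 19 fenofibrate arrays, against -1.26, 0.16 and 0.81 in vehicle arrays, a difference of -0.44 ± 0.18 (adjusted p = 0.154, limma). Col1a2 differed by -0.40 ± 0.19.

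Leaving out the 3 soleus vehicle arrays in doubt (rats 1022, 1034 and 1061) raised the counts. Under fenofibrate 6 of 55 then passed, against 6.08% of all features, with Lamb2 (-0.19 ± 0.05), Mmp23 (-0.29 ± 0.09) and Timp2 (-0.27 ± 0.09) added. Under rosiglitazone 5 passed, against 4.1%, with Adamtsl2 (-0.35 ± 0.10), Col14a1 (-0.30 ± 0.09) and Lama3 (-0.14 ± 0.04) added. Under retinoic acid 5 passed, against 4.46%, with Lama2 (-0.22 ± 0.06) and the stromelysin Mmp11 (0.22 ± 0.06) added. None passed under bezafibrate (1.63%) or Wy-14643 (0.332%). Markers were counted only with all soleus arrays used. There 3 of 10 fibroblast markers fell under fenofibrate, against 3.33% of all features that passed. The list mean ranged from -0.55 to 0.09 in fenofibrate arrays, against -0.30 to 0.33 in vehicle arrays. Under retinoic acid 3 of 10 fibroblast markers also fell with all arrays used, against 2.85% of all features, at list means of -0.54 to 0.07 in retinoic acid arrays. Whether these markers have a part in the calls was not tested.

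In quad, most calls came from rosiglitazone and retinoic acid. Under rosiglitazone 1 of 56 rose and 8 fell, against 10.5% of all features, of which 1146 rose and 793 fell. Col15a1, a collagen that links basement membranes to the connective tissue, had -1.18, -0.45 and 0.18 in 16 rosiglitazone arrays, against -0.93, 0.02 and 0.73 in 63 vehicle arrays. Of the 16, 14 were below the vehicle median and 4 below every vehicle array (-0.49 ± 0.11, adjusted p = 0.0012, limma). Lama5 had -0.71, -0.29 and -0.03, against -0.94, -0.00 and 1.06 in vehicle quad, and all 16 lay below the vehicle median (-0.35 ± 0.07, adjusted p = 0.00015, limma).

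The other falls with rosiglitazone in quad were Adamtsl2 (-0.47 ± 0.11), the small proteoglycan Lum (-0.41 ± 0.14), Col26a1 (-0.30 ± 0.10), Timp1 (-0.21 ± 0.05), Adamtsl5 (-0.12 ± 0.04) and Col27a1 (-0.11 ± 0.03). Mmp11 rose by 0.26 ± 0.09. The median of the 56 was -0.10, against -0.01 for all features. Plaur, the urokinase receptor, rose by 0.38 ± 0.03, while Cd34, a marker of fibroblast-like and endothelial cells, fell by 0.74 ± 0.07. Of 11 fibroblast markers 4 fell and 0 rose, with list means of -0.49 to -0.05 in rosiglitazone quad, against -0.43 to 0.38 in vehicle quad. Among 7 smooth muscle and pericyte markers 3 fell. The endothelial list was split, with 3 of 10 markers rising and 3 falling, at differences of -0.45 to 0.92. Their part in the result was not tested.

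Under retinoic acid in quad 0 rose and 4 fell, against 3.25% of all features. Lama2 had -0.86, -0.24 and 0.19 in 18 retinoic acid arrays, against -0.60, 0.01 and 0.82 in vehicle arrays, with 15 of 18 below the vehicle median (-0.26 ± 0.05, adjusted p = 0.000237, limma). Timp1 had -0.56, -0.26 and 0.08 in retinoic acid quad, against -0.37, -0.03 and 0.65 in vehicle quad, with 17 of 18 below the vehicle median (-0.24 ± 0.05, adjusted p = 0.00078, limma). Dcn, the fibril-binding proteoglycan decorin, fell by 0.41 ± 0.11 and Col6a3, a chain of the microfibrils around cells, by 0.33 ± 0.07. Of 11 fibroblast markers 4 fell and of 16 leukocyte markers 5 fell, with fibroblast list means of -0.54 to 0.10 in retinoic acid quad, against -0.43 to 0.38 in vehicle quad. Their part was not tested either.

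Under bezafibrate in quad 1 gene rose, against 2.95% of all features: Lama1, by 0.11 ± 0.03, a call that was lost without rat 1256. Under fenofibrate and Wy-14643 none passed, against 0.771% and 0.038%, and 5 and 8 had an unadjusted p under 0.05 in limma. The days differed for 1 gene under Wy-14643, against 0.0163% of all features. This was Mmp2, at 0.21 ± 0.09, -0.49 ± 0.10, 0.12 ± 0.12, -0.12 ± 0.09 and -0.33 ± 0.10 on days 2 to 6 (adjusted p = 0.01542, limma), an order with no steady course. The days differed for no gene under fenofibrate (0.0109%), bezafibrate (1.58%), rosiglitazone (0.206%) or retinoic acid (0.038%), with 8, 15, 4 and 9 at an unadjusted p under 0.05.

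Soleus was set against quad directly, as the difference of the 2 compound effects. No member passed with any compound. The share of all features that passed was 0.256% (fenofibrate), 0.049% (bezafibrate), 0.00545% (Wy-14643), 0.049% (rosiglitazone) and 0.0926% (retinoic acid). At an unadjusted p under 0.05 in limma, 7, 2, 4, 6 and 6 of the 55 were counted in that order. The 95% interval of a gene's difference had a median half-width of 0.24 to 0.26 log2 units. The smallest p values belonged to Col6a2 under fenofibrate, at -0.19 ± 0.06 for soleus minus quad (adjusted p = 0.186), and to Timp1 under rosiglitazone, at 0.46 ± 0.16 (adjusted p = 0.319). For Mmp9 under retinoic acid the difference between soleus and quad was 0.75 ± 0.42, with an interval of -0.07 to 1.57, so the rise in soleus was not shown to differ from quad.

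Vehicle quads held 2 levels of Mmp9, a pattern noticed after the values were seen, as was that of Mmp13. On day 2, 5 of 14 vehicle arrays lay above 1 and the other 9 below -0.3, with none between; on day 3 it was 2 of 8 and 6, and on day 4 it was 5 of 15 and 10. The lowest of the high arrays were at 1.51, 2.99 and 1.22 on days 2, 3 and 4. On days 5 and 6 all 26 vehicle quads lay between -0.23 and 0.33. Mmp13, a collagenase, split into the same numbers of high and low arrays on each of days 2 to 4, and the high arrays of one gene were high for the other. Its standard deviation over the 63 vehicle quads was 1.56 and that of Mmp9 was 1.28, against 0.135 and 0.19 over the 73 vehicle livers. The collagen Col9a3 tended to be high in the same quads, at -0.82 to 1.84 over the 63, though its split by day was not counted. Since the arrays form clusters, no pooled correlation is given. On days 5 and 6, outside the split, Pearson's r of Mmp9 and Mmp13 was 0.21 over 26 arrays, as a description. Under retinoic acid in quad Mmp9 stood at 0.25 ± 0.36, which did not pass, with single arrays at 2.37 on day 3 and 3.36 on day 5 and the others between -0.67 and 0.52.

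**Figure D5:**
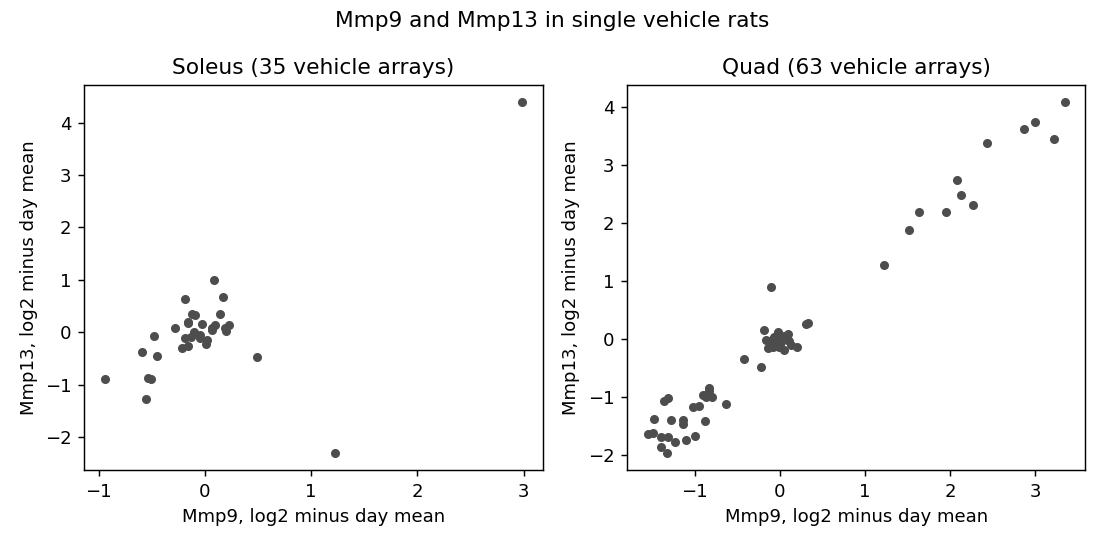
Mmp9 against Mmp13 in each vehicle array of soleus (35) and quad (63), both on the log2 scale minus the mean of the vehicle arrays of the day. In quad 12 arrays of days 2 to 4 lie above 1 for both genes; in soleus 1 array lies above 2 for both.

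Pairs of matrix genes that work together were compared across vehicle rats, 22 relations in all, with permutation tests (100000 permutations, two-sided) adjusted by Benjamini-Hochberg. Col1a1 and Col1a2, the 2 chains of collagen I, had Pearson's r of 0.85 (Spearman's rho 0.84, n = 35) in soleus, 0.92 (rho 0.95, n = 63) in quad and 0.64 (rho 0.63, n = 73) in liver, each at the smallest p the permutations can give (1e-05, adjusted 1.7e-05). Without the 2 arrays farthest from the median of Col1a1, r was 0.81 (soleus), 0.90 (quad) and 0.58 (liver). Lum and Dcn, small proteoglycans of the same family, had r of 0.87, 0.54 and 0.52 in the same order. Col3a1 and Dcn had r of 0.84 in soleus, 0.41 in quad and 0.13 in liver, the last not passing (adjusted p = 0.29, permutation test).

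Col4a1 and Col4a2, whose promoter windows overlap as printed above, had r of 0.52 in soleus, 0.65 in quad and 0.51 in liver. In soleus this rested on few arrays: r was 0.34 (adjusted p = 0.07, permutation test) without the 3 in doubt and 0.30 without the 2 farthest from the median. Mmp2 and its inhibitor Timp2 had r of 0.51 in soleus, 0.19 in quad and 0.17 in liver, and neither quad (adjusted p = 0.15, permutation test) nor liver (adjusted p = 0.17) passed. As a description without a test, median correlations were taken without the arrays in doubt, over 32 soleus, 60 quad and 73 liver vehicle arrays. Among 9 genes of the interstitial matrix the median was 0.73 (soleus), 0.65 (quad) and 0.36 (liver), and among all pairs of the family 0.11, 0.11 and 0.04. The points of these correlations share the pool of their day and the array's own width.

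EDL had no single vehicle rats, so its arrays were tested against the pool itself, and any difference between the pool and the compounds' rats that all rats shared enters the result. Under fenofibrate 4 of 56 rose and 6 fell, against 34.6% of all features, under bezafibrate 3 and 13, against 33.9%, under Wy-14643 9 and 10, against 47.1%, under rosiglitazone at 10 mkd 5 and 9, against 37.2%, and under retinoic acid 9 and 9, against 40.4%. Timp3, Col4a1, Col27a1, Adamtsl5 and Adamts7 passed with all 5 compounds. The compounds were set against the same pools, whose own spread is left out of these tests. No share of features passing with all 5 was computed. Timp3, an inhibitor bound to the matrix, differed from the pool by -0.11 (fenofibrate), -0.15 (bezafibrate), -0.23 (Wy-14643), -0.17 (rosiglitazone) and -0.19 (retinoic acid), and Col4a1 by -0.20, -0.24, -0.26, -0.17 and -0.22 in that order. Adamts7 was above the pool by 0.35, 0.26, 0.31, 0.37 and 0.48.

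When each compound was set against the mean of the other 4 in EDL, an alternative chosen after the data were seen, none of the 56 passed, while 0 features did for fenofibrate, 0 for bezafibrate, 2 under Wy-14643, 122 under rosiglitazone and 17 under retinoic acid. At an unadjusted p under 0.05 in limma 4, 2, 3, 1 and 1 of the 56 were counted. Mmp3 under fenofibrate, at 0.98 from the pool, rested on 1 array at 6.64, the limit of the scale, and its median over 9 arrays was 0.26. The 2 rosiglitazone doses met only on day 4. There Mmp9 was 0.02, 0.04, 0.40 and 0.06 in the 4 rats at 100 mkd, and 0.23, -0.03 and 1.23 in the 3 rats at 10 mkd, so the ranges overlap. Adamts1 was 0.21 to 0.53 at 100 mkd and 0.11 to 0.21 at 10 mkd.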

How the data were processed

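RNA was measured on 484 2-colour arrays of 23653 probes, with the rat in Cy5 and a pool of 10 to 16 vehicle rats in Cy3, per the labels. The authors deposited log10 ratios. Their normalization, log base and direction are not stated in the labels and were inferred from the values, which stop at 2 log10 units, and from the channels; they were multiplied by 3.3219 to give log2. Missing values made up 0.907% of the total. The limit was reached by 699, of which 4 belong to the genes described. The number of arrays limits the precision, as does the spread between rats, with a median residual SD of 0.254 log2 units in soleus, 0.173 in quad and 0.186 in liver.

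Probes naming 1 gene were averaged, and the rest kept, which gave 18603 features. Features with values on at least 80% of the arrays were fitted with limma 3.58.1 (R 4.3.3; statmod 1.5.0) as 1 mean per tissue, compound, dose and day. Compounds were set against same-day vehicle rats, with days weighted equally, and p values were adjusted by Benjamini-Hochberg over all features at 0.05. EDL was tested against the pool. Tables, permutation tests and figures used Python 3.11.15, numpy 2.4.6, pandas 2.3.3, scipy 1.17.1 and matplotlib 3.10.9. The fit was tested on simulated data.

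Soleus and quad arrays that share a rat number in the labels come from the same rat. Deviations from the group means correlated at a median of 0.259 over 110 such rats, and at -0.050 between other rats of the same compound and day. Named genes were all members that passed in any comparison, a fixed set of central matrix genes, up to 4 passing genes per comparison with the smallest adjusted p from the related lists, and Acot1. The never-passing members, Mmp13 and members that passed only with arrays left out were named after their values were seen. Members, lists and alternatives were chosen with earlier results of these data known. An array was in doubt where its median absolute deviation exceeded 3 times the tissue's median, or where another tissue's markers exceeded the day's median array by 2 log2 units. The labels do not name separate litters or cages, so p values measure the spread between rats of a day.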

Additional observations from a re-analysis of the deposited data

Results flagged for a closer look

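In EDL, single arrays stood far from the rest of their group, by Dixon's test, in 20 of the 121 gene and group combinations that could be tested. Chance gives about 1 in 20 for a single combination. Since 1 array can be flagged for several genes that vary together, the combinations are not independent and the count does not measure an excess. Under rosiglitazone at 10 mkd the lone arrays were low for Col1a1 (-2.22), Col1a2 (-2.0), Col3a1 (-1.72), Timp2 (-0.75), Col4a2 (-0.72) and Col6a2 (-0.55), and high for Mmp9 (1.23). Under bezafibrate at 25 mkd they were low for Col12a1 (-2.21), Fn1 (-1.59), Dcn (-1.25) and Mmp2 (-0.43), and high for Col4a2 (0.85), Adamtsl5 (0.21) and Timp3 (0.05). Under fenofibrate at 50 mkd they were Mmp3 (6.64), Dcn (1.14), Timp2 (0.28) and Col1a2 (-1.19). In the 4 arrays of rosiglitazone at 100 mkd they were Mmp9 (0.4) and Col4a1 (-0.04). All are log2 ratios to the pool.

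The effect differed between days for 1 member in quad under Wy-14643 (Mmp2, adjusted p = 0.01542, limma), for 1 in liver under fenofibrate (Timp1, 0.04597), and for 3 in liver under retinoic acid (Mmp9, 1.078e-05; Col27a1, 0.03137; Mmp17, 0.04188). In liver under rosiglitazone it differed for 31, led by Mmp7 (adjusted p = 2.319e-06, limma), Lamb2 (8.434e-06) and Col4a1 (0.0001143). That count was 1 without rats 1373 and 1376 of day 4.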

How the results depend on the processing

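In soleus, 8 calls became 13 with arrays scaled to one spread, 16 without the arrays in doubt, 7 to 16 when single arrays in doubt were left out (16 without rat 1022, 13 without 1034, 7 without 1061), 13, 4 and 3 with day 3, 4 or 5 left out, and 24 against the pool. In quad, 14 calls became 25 with array quality weights, 7 and 6 without day 3 or 4, and 29 against the pool; the 1 day difference became 18 with weights. In liver, 67 calls became 90 without rat 1376 and 99 with weights, and the 35 day differences became 14 with weights, 15 without the array in doubt (rat 1376), and 9 without rats 1373 and 1376. In EDL, 77 calls became 37 without day 6 and 0 against the other compounds. For soleus minus quad, 0 became 1 with weights and 3 with rat 1157 kept. With the rat as a replicate block, that is the pairing of soleus and quad, the count stayed 0. Mmp2 under retinoic acid in liver turned to -0.12 with one probe per gene, and Mmp7 under rosiglitazone to 0.0073 without day 4. Of the 67 liver calls 63 were kept with array medians subtracted, 55 with scaling, 55 with weights and 56 with one probe. Leaving out rats 1373 and 1376 together and using the other EDL compounds as the comparison were chosen after the data were seen. Causes were not tested.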
